A study of Mus musculus with 33 samples.

Results

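Osteoblasts made from skin-derived fibroblasts were examined here after sorting for a reporter of bone collagen expression, and set beside an unsorted induced culture. The comparison covers 6 of the 33 samples of the series, 3 libraries of sorted cells and 3 of fibroblasts, and every gene in the authors' deposited table for it was used, 17737 genes in all. All cells came from Col2.3GFP mice, which carry green fluorescent protein (GFP) behind a fragment of the collagen type I promoter that is active in osteoblasts. The fibroblasts were tail-tip cells expanded for 2 passages and frozen. Induced osteoblasts (iOB) were such fibroblasts plated on gelatin, given a lentivirus carrying a transcription factor gene, washed free of virus after 24 hours, split on day 3 and moved from fibroblast medium to osteogenic medium on day 5. The cells called iOB GFP+ were the GFP-positive fraction sorted from such a culture. The labels give no age or sex of the mice, no day of harvest, and no arm with virus alone or osteogenic medium alone, so virus, factors and medium cannot be told apart in any difference from fibroblasts. The unsorted cells did not pass a sorter, and the part of sorting itself in any difference between sorted and unsorted cells was not tested. The sample titles do not say whether sorted and unsorted libraries came from the same cultures. The part of any difference between cultures was not tested either. Nothing in the labels says that the 3 libraries of a group came from separate cultures, so p-values measure the spread between these libraries, which may be technical.

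An osteoblast builds bone by secreting a matrix of type I collagen together with small acidic and calcium-binding proteins, and by releasing phosphate so that mineral forms in that matrix. Runx2 is the factor that commits a mesenchymal cell to this lineage, Sp7 (osterix) acts after it, Dlx5 is a homeobox factor that supports both, and Atf4 drives amino acid import and collagen synthesis in mature osteoblasts. Cells that become buried in the matrix turn into osteocytes and switch on genes such as Dmp1, Mepe and Sost. A culture made by forced expression of factors holds converted and unconverted cells side by side. Its average RNA therefore mixes them, and in bulk RNA fewer cells of a type and less RNA per cell cannot be told apart.

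Each gene has a sorted and an unsorted value, each a log2 fold change against the same 3 fibroblast libraries with its standard error (SE), as it stands in the authors' deposited tables. One table is for iOB GFP+ (the sorted table) and the other for iOB (the unsorted table). Adjusted p-values of each table are those of the authors' DESeq2 test, and a gene was called at an adjusted p below 0.05. The difference between the sorted and the unsorted log2 fold change was tested for 16894 genes with a p in both tables (two-sided Wald test, adjusted over all of them). Levels per library exist here for fibroblasts and iOB and are given where a result turns on them. They are in CPM, a gene's count scaled to its library's total count after adjustment by edgeR's TMM factor. Counts per library summed to between 7634593 and 13367273 in fibroblasts and between 5646299 and 8187715 in iOB; the depth of the sorted libraries is unknown. The base mean of the sorted table averages 9 libraries, 3 of which belong to neither group compared. It was therefore used only as a minimum, in choosing genes to name and in an alternative setting. It is not printed as a level of the sorted cells. A gene near 0 in fibroblasts passes such a minimum through the other libraries in that average, where it is high. The authors' tables hold no p for 377 genes in the sorted comparison and for 30 in the unsorted one, which DESeq2 does where a count in a single library is extreme. The table does not show which library that was, and no sorted library could be left out. Of the 26 macrophage genes in both tables, 25 are among the 377, and so are the adipocyte genes Adipoq, Plin1 and Cfd.

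Sorted cells differed from fibroblasts in 7424 of 16328 tested genes (45.5%), of which 3877 were higher (23.7%) and 3547 lower (21.7%), by the authors' adjusted p. The unsorted culture differed in 5649 of 16208 (34.9%), 3222 higher (19.9%) and 2427 lower (15.0%), in the authors' table; edgeR's quasi-likelihood test on the deposited counts called 5820 of 13438 (43.3%). Called genes lowered at least 2-fold numbered 1351 of 16328 (8.27%) in sorted cells and 684 of 16208 (4.22%) in the unsorted culture. Those raised at least 2-fold numbered 2036 of 16328 (12.5%) and 2049 of 16208 (12.6%). The fold changes are moderated towards 0 by unlike priors (implied variance 2.46 sorted and 1.24 unsorted). A 2-fold cut is therefore not the same in both. The test of the difference called 1628 of 16894 genes (9.64%), 942 with a higher value in sorted cells (5.58%) and 686 with a lower one (4.06%). Of these, 702 (4.16% of the genes tested) were called in sorted cells and not in the unsorted culture: 427 higher (2.53%) and 275 lower (1.63%) than in fibroblasts. Counts of list members called are to be read beside these shares over all genes. The median difference over all genes tested was -0.00, which the scaling of each table fixes near 0. The fitted fold change of a gene with few or no counts in fibroblasts, such as Phospho1, Col13a1 or Ihh, depends on the model's prior and is no bound.

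**Figure D1:**
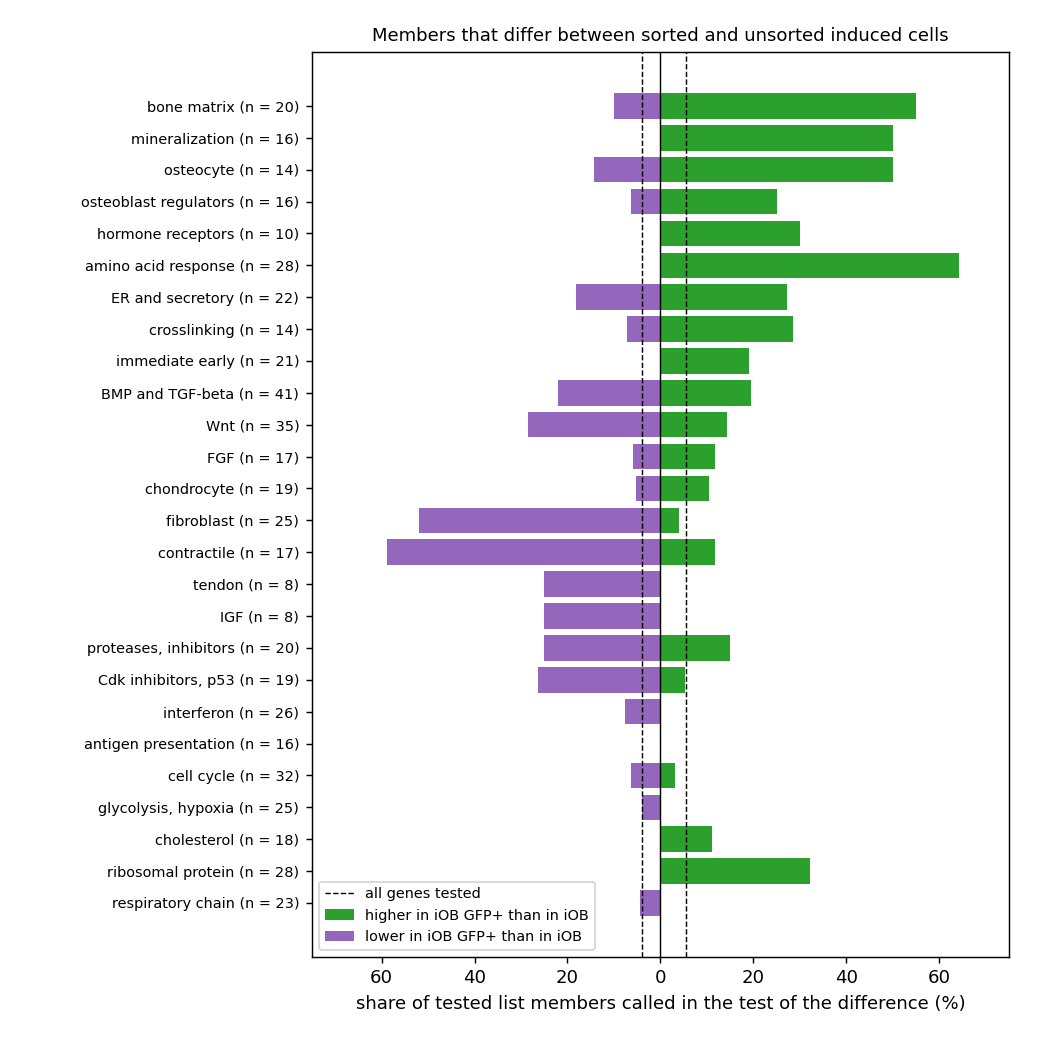
Share of each list's tested members, in percent, whose log2 fold change against fibroblasts differed between sorted iOB GFP+ and unsorted iOB (adjusted p below 0.05): green bars to the right are higher in iOB GFP+, purple bars to the left lower, n is the number of members tested, and dashed lines are the shares over all genes (5.58% and 4.06%). Bone, mineral and amino acid response genes lie far to the right and fibroblast and contractile genes far to the left, while antigen presentation has no bar. The bone matrix bar counts Col1a1 and Col1a2, whose values describe the sort.

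Runx2, Sp7, Dlx5 and Atf4, the factors of this lineage, were all higher in sorted cells than in fibroblasts. Sp7 stood at 3.18, 4.21 and 3.07 CPM in fibroblasts and 720.4, 529.7 and 579 CPM in iOB. Its log2 fold change was 7.94 ± 0.18 in sorted and 7.28 ± 0.25 in unsorted cells in the authors' tables, and the difference of 0.66 ± 0.31 did not pass the test (adjusted p = 0.180). Dlx5 likewise had values of 7.17 ± 0.31 and 7.57 ± 0.28 in the authors' tables (difference -0.40 ± 0.41, adjusted p = 0.711). Runx2 was higher in sorted cells, at 3.60 ± 0.15 against 2.63 ± 0.12 in the authors' tables (difference 0.96 ± 0.20, adjusted p = 5.68e-05). Atf4 was among the genes called only after sorting: it measured 213, 259 and 251 CPM in fibroblasts and 374, 257 and 258 CPM in iOB, which overlap, and the authors' unsorted value of 0.30 ± 0.16 was not called (adjusted p = 0.136), whereas the sorted value was 1.08 ± 0.09 (adjusted p = 3.80e-30; difference 0.78 ± 0.18, adjusted p = 8.29e-04). The labels do not name the factor or factors carried by the virus, and counts of these 4 genes may include viral transcripts.

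Many bone matrix genes were higher in sorted than in unsorted cells. Of 20 bone matrix genes, 12 were higher and 4 lower in sorted cells than in fibroblasts, against 11 and 6 in the unsorted culture, and 11 were higher and 2 lower in sorted than in unsorted cells. Under the alternatives tried, 8 to 12 were higher and 2 lower in sorted than in unsorted cells, with 8 without fibroblast replicate 3. The median log2 fold change of the list was 1.37 in the sorted and 0.64 in the unsorted table, beside 0.03 and 0.01 over all genes. Col1a1 and Col1a2, the chains of type I collagen, stood at 3.44 ± 0.29 and 3.05 ± 0.30 in sorted cells and at 0.67 ± 0.19 and 0.70 ± 0.13 in unsorted cells in the authors' tables. Since a fragment of the collagen type I promoter drives the GFP that was sorted on, these values describe the sort and are no finding. Both genes are among the 12, 11 and 11 genes counted as higher, and both enter the medians of the list.

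Other matrix genes were not part of the sort. Sparc, which encodes osteonectin, a collagen- and calcium-binding protein, measured 8881, 9097 and 8926 CPM in fibroblasts and 10903, 9867 and 9717 CPM in iOB. All 3 iOB libraries lay above all 3 fibroblast libraries, but by little, and the authors' unsorted value was 0.18 ± 0.10 (adjusted p = 0.173). In the authors' sorted table it was 1.93 ± 0.25 (adjusted p = 5.32e-14), a difference of 1.75 ± 0.27 (adjusted p = 2.01e-08). Col11a1, a fibrillar collagen chain that nucleates collagen fibrils, changed in the same way, from -0.05 ± 0.13 in the authors' unsorted table to 1.59 ± 0.38 in the sorted one (difference 1.65 ± 0.40, adjusted p = 0.00142). Col24a1, a fibrillar collagen of bone, went from -0.40 ± 0.26 to 1.71 ± 0.54 in the authors' tables (difference 2.11 ± 0.60, adjusted p = 0.00881). Col11a2, which joins Col11a1 in type XI collagen, was already high in the culture and higher still after sorting. It measured 5.71, 4.77 and 5.06 CPM in fibroblasts and 215, 177 and 206 CPM in iOB, with no overlap, and its authors' values were 5.13 ± 0.23 unsorted and 9.52 ± 0.35 sorted (difference 4.39 ± 0.42, adjusted p = 1.11e-21).

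Spp1 encodes osteopontin, an acidic matrix phosphoprotein made by fibroblasts and macrophages as well as by osteoblasts. It measured 2686, 2265 and 2207 CPM in fibroblasts and 402, 617 and 551 CPM in iOB, so every unsorted library lay below every fibroblast library. The authors' unsorted value was -2.16 ± 0.17 (adjusted p = 5.67e-35), while the sorted value of 0.47 ± 0.33 was not called (adjusted p = 0.259). The difference was 2.63 ± 0.37 (adjusted p = 1.17e-09): the fall called in the whole culture was not called in the sorted cells. Fmod, which encodes the collagen-binding proteoglycan fibromodulin, and Ogn, which encodes osteoglycin, went the opposite way. Both were raised in the unsorted culture, at 1.18 ± 0.14 and 0.76 ± 0.20, and stood at -0.33 ± 0.25 and -1.34 ± 0.57 in sorted cells in the authors' tables (differences of -1.51 ± 0.29 and -2.11 ± 0.60, adjusted p = 1.73e-05 and 0.00900).

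Late markers of the osteoblast reached the largest values in the authors' sorted table, among genes at or above its median base mean. Bglap and Bglap2 encode osteocalcin, and since they are near-identical neighbours, the split of reads between them is uncertain. Bglap2 measured 0.468, 1.12 and 1.49 CPM in fibroblasts and 425, 360.2 and 445 CPM in iOB, and its authors' values were 8.27 ± 0.27 unsorted and 10.94 ± 0.44 sorted (difference 2.67 ± 0.52, adjusted p = 2.01e-05). Bglap stood at 8.09 ± 0.45 and 10.81 ± 0.61 in the authors' tables (difference 2.72 ± 0.76, adjusted p = 0.00694). Ibsp, which encodes bone sialoprotein, a nucleator of mineral, measured 1.87, 2.11 and 9.20 CPM in fibroblasts and 951, 1134 and 1206 CPM in iOB and stood at 6.54 ± 0.55 and 10.19 ± 0.68 (difference 3.65 ± 0.87, adjusted p = 0.00107). The third fibroblast library was the highest of its group for both Bglap and Ibsp. Without it in the unsorted values, the differences were 1.41 ± 0.69, adjusted p = 0.241 for Bglap and 1.44 ± 0.73, adjusted p = 0.263 for Ibsp, and neither passed. The sorted values still held that library, so the fibroblast baselines no longer matched. This setting therefore cannot decide whether the gains on sorting depend on that library.

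Osteocalcin is a textbook target of Runx2, so the stretch of its promoter that holds the core sequence bound by RUNX factors is shown, from RefSeq (GRCm38.p6), with the match in capitals. The sequence runs 5′ to 3′ on the strand of the gene. The letters searched were TGTGGT on both strands, and this match is on the opposite strand to the gene. It lies 132 bases before the start site.
Bglap, chr3:88384557-88384634, minus strand: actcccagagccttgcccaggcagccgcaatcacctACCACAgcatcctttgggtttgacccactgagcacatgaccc
The motif was present between 250 bases before and 50 bases after the start in 4 of 15 bone matrix genes with a promoter in the table (26.7%), in 2 of 10 mineralization genes, in 3 of 13 osteocyte genes (23.1%), and in 5113 of 27025 genes overall (18.9%). A match is a description of letters and shows no binding.

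**Figure D2:**
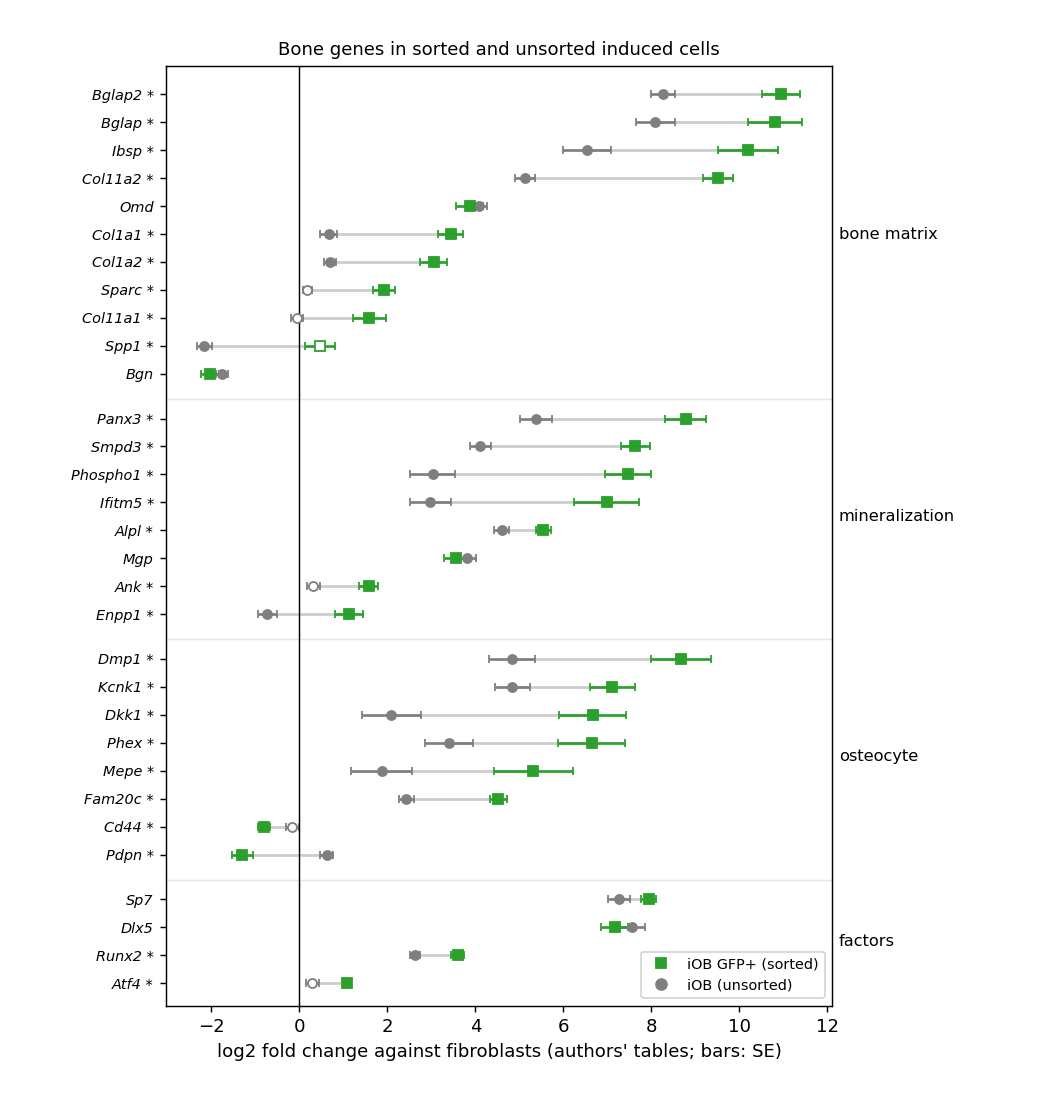
Log2 fold change against fibroblasts in the authors' tables for bone matrix, mineralization, osteocyte and factor genes: green squares are sorted iOB GFP+, grey circles unsorted iOB, bars are SE, open symbols mark an adjusted p of 0.05 or more, and an asterisk marks a difference that passed its test. Most bone genes lie further right after sorting, while Pdpn and Cd44 lie further left and Sp7, Dlx5, Omd, Bgn and Mgp show no called difference. The values of Col1a1 and Col1a2 describe the sort.

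Many of the genes that lay down mineral were higher in sorted than in unsorted cells. Of 16 mineralization genes, 9 were higher and 4 lower in sorted cells, against 8 and 4 in the unsorted culture, and 8 were higher and 0 lower in sorted than in unsorted cells; that count of 8 was the same under each of the 11 alternatives tried. Phospho1, the phosphatase that frees phosphate inside matrix vesicles, was near the limit of detection in the culture, at 0.281, 0 and 0.249 CPM in fibroblasts and 3.47, 2.34 and 2.15 CPM in iOB. Its authors' values were 3.03 ± 0.50 unsorted and 7.47 ± 0.53 sorted, a difference of 4.45 ± 0.73 (adjusted p = 2.55e-07). Smpd3, a sphingomyelinase needed for mineral to form in bone matrix, went from 4.12 ± 0.25 to 7.63 ± 0.33 in the authors' tables (difference 3.51 ± 0.41, adjusted p = 6.83e-14). Ifitm5, a membrane protein restricted to mineralizing osteoblasts, and Panx3, a channel of the maturing osteoblast, differed by 4.01 ± 0.87 and 3.41 ± 0.59 (adjusted p = 1.97e-04 and 1.34e-06).

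Alpl, which encodes the tissue-nonspecific alkaline phosphatase that serves as the routine stain for osteoblasts, behaved otherwise. It measured 35.1, 38.3 and 34.5 CPM in fibroblasts and 1058, 775 and 881 CPM in iOB, with a wide gap between groups, and the authors' values of 4.60 ± 0.18 unsorted and 5.54 ± 0.17 sorted differed by 0.95 ± 0.25 (adjusted p = 0.00338). On the log2 scale, most of its increase was already there without sorting. Enpp1, which makes pyrophosphate, the natural brake on mineral growth, and Ank, which carries pyrophosphate out of the cell, were also higher after sorting. Enpp1 was lower than in fibroblasts in the authors' unsorted table (-0.73 ± 0.22) and higher in the sorted one (1.13 ± 0.31), a difference of 1.86 ± 0.38 (adjusted p = 7.47e-05). Ank went from an uncalled 0.32 ± 0.14 to 1.58 ± 0.22 in the authors' tables (difference 1.26 ± 0.26, adjusted p = 8.64e-05). Mgp, which encodes matrix Gla protein, an inhibitor of calcification, was high in both authors' tables with no called difference (3.80 ± 0.21 and 3.56 ± 0.27, adjusted p = 0.830).

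Osteocyte genes also gained on sorting. Of 15 tested in the sorted table, 9 were higher and 2 lower, and of 14 with a test of the difference, 7 were higher and 2 lower than in the unsorted culture (1 lower without fibroblast replicate 2, iOB replicate 2 or iOB replicate 3). Dmp1, which encodes an acidic protein secreted by osteocytes that controls mineral and phosphate, measured 1.03, 0.421 and 0.332 CPM in fibroblasts and 16.6, 32.0 and 45.4 CPM in iOB. Its authors' values were 4.83 ± 0.52 unsorted and 8.67 ± 0.68 sorted (difference 3.84 ± 0.86, adjusted p = 3.78e-04). Fam20c, the kinase that phosphorylates such secreted proteins, went from 2.43 ± 0.17 to 4.52 ± 0.19 in the authors' tables (difference 2.09 ± 0.26, adjusted p = 1.97e-12). Phex, an endopeptidase of phosphate control, differed by 3.24 ± 0.94 (adjusted p = 0.0107, but 2.51 ± 0.92, adjusted p = 0.0676 without fibroblast replicate 3 in the unsorted value only, where the baselines no longer matched). Tnfrsf11b, which encodes osteoprotegerin, the decoy that restrains osteoclast formation, differed by 1.55 ± 0.43 (adjusted p = 0.00702).

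Sost, Dkk1 and Mepe, of the mature osteocyte, had 0 counts in all fibroblast libraries, so their fitted fold changes depend on the model's prior and are no bound. Sost encodes sclerostin, the Wnt inhibitor that osteocytes release to slow bone formation. It was at 0 CPM in all 3 fibroblast libraries and 0.151, 0.117 and 0 CPM in iOB, and the authors' sorted value was 6.21 ± 0.71 (adjusted p = 4.21e-17) beside an unsorted 0.59 ± 0.78 that has no adjusted p. Dkk1, another secreted Wnt inhibitor, stood at 2.09 ± 0.68 and 6.67 ± 0.77 in the authors' tables (difference 4.57 ± 1.02, adjusted p = 3.75e-04). Mepe, a matrix phosphoglycoprotein, differed by 3.45 ± 1.13 (adjusted p = 0.0288), which was lost when the unsorted values were given a prior as wide as that of the sorted table (2.78 ± 1.27, adjusted p = 0.175), and also without iOB replicate 1 (adjusted p = 0.0539) or 3 (3.23 ± 1.14, adjusted p = 0.0579). Not every osteocyte gene was higher: Pdpn, which encodes podoplanin, a protein of the young osteocyte that fibroblasts also make, was 0.62 ± 0.15 unsorted and -1.30 ± 0.23 sorted in the authors' tables (difference -1.92 ± 0.28, adjusted p = 1.70e-09).

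Regulators of the lineage and receptors for bone hormones were next. Of 16 osteoblast regulators, 6 were higher and 3 lower than in fibroblasts in sorted cells and 7 and 3 in the unsorted culture, and 4 were higher and 1 lower in sorted than in unsorted cells. Under the alternatives tried, 3 to 5 were higher and 1 lower in sorted than in unsorted cells. Dlx3, a homeobox factor of bone, and Tcf7, a partner of beta-catenin, differed by 3.47 ± 0.65 and 2.69 ± 0.42 (adjusted p = 1.08e-05 and 3.28e-08), whereas Sox11, a factor of progenitor cells, was lower (-1.94 ± 0.50, adjusted p = 0.00245). Sox9, the master factor of cartilage, was lowered in both, at -2.20 ± 0.23 and -2.18 ± 0.29 in the authors' tables (adjusted p of the difference = 0.990).

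Among 10 hormone receptors, 3 were higher and 0 lower in sorted than in unsorted cells, a count that held under each of the 11 alternatives. Vdr encodes the vitamin D receptor and measured 26.6, 24.4 and 33.2 CPM in fibroblasts and 40.0, 32.5 and 30.5 CPM in iOB. The groups overlap, and the authors' unsorted value of 0.28 ± 0.17 was not called (adjusted p = 0.191); the sorted value was 2.62 ± 0.31 (difference 2.34 ± 0.35, adjusted p = 1.55e-08). Pth1r, the receptor for parathyroid hormone, rose in both authors' tables, to 3.35 ± 0.20 unsorted and 5.70 ± 0.22 sorted (difference 2.35 ± 0.29, adjusted p = 2.04e-12). The receptor gene listed as Gpr133 differed by 3.87 ± 0.63 (adjusted p = 2.32e-07).

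Fibroblast genes went the other way. Of 24 fibroblast genes tested in the sorted table, 1 was higher and 18 lower, while the unsorted culture had 8 higher and 11 lower of 29. Of the 29, 4 have no p in the sorted table, so these counts do not cover the same genes. Of 25 with a test of the difference, 13 were lower and 1 higher in sorted cells; leaving out any 1 library or changing another setting gave 13 or 14 lower. Fbln2, which encodes fibulin-2, a matrix protein of loose connective tissue, measured 2196, 2902 and 3556 CPM in fibroblasts and 308, 444 and 418 CPM in iOB. In the authors' tables it was -2.85 ± 0.18 unsorted and -5.18 ± 0.28 sorted (difference -2.33 ± 0.33, adjusted p = 1.64e-09). Fbn1 (fibrillin-1, of elastic microfibrils) and S100a4 (a calcium-binding protein also called fibroblast-specific protein) differed by -1.94 ± 0.55 and -1.89 ± 0.35 (adjusted p = 0.00761 and 8.51e-06). Vim, which encodes the intermediate filament vimentin, differed by -1.01 ± 0.21 (adjusted p = 8.64e-05).

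In 4 fibroblast genes the fall was called only after sorting. Ly6a, a surface protein of mesenchymal progenitors, measured 157, 211 and 250.3 CPM in fibroblasts and 231, 280.2 and 254 CPM in iOB. The groups overlap, and the authors' unsorted value was 0.31 ± 0.16 (adjusted p = 0.121), against -2.01 ± 0.41 sorted (difference -2.32 ± 0.44, adjusted p = 1.39e-05). The matrix genes Dpt, Col6a1 and Col6a2 made up the rest, with authors' sorted values of -1.97 ± 0.52, -0.65 ± 0.14 and -0.65 ± 0.19. Fbln5 and Col3a1 turned: each was called higher than in fibroblasts in the authors' unsorted table (0.63 ± 0.11 and 0.30 ± 0.10) and lower in the sorted one (-1.31 ± 0.38 and -0.83 ± 0.28). Fn1, which encodes fibronectin, and Pdgfra, a growth factor receptor of mesenchymal cells, fell in both authors' tables with no called difference (adjusted p = 0.121 and 0.965). The exception in the list was Fap, a surface protease of activated fibroblasts that was 2.53 ± 0.21 unsorted and 4.28 ± 0.39 sorted (difference 1.75 ± 0.44, adjusted p = 0.00241).

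Contractile genes, which mark the myofibroblast, a fibroblast with smooth muscle filaments, separated further. Of 17, 8 were higher and 8 lower in sorted cells and 8 higher and 2 lower in the unsorted culture, and 10 were lower and 2 higher in sorted than in unsorted cells (1 higher without iOB replicate 1). Cnn1, which encodes calponin, measured 114, 89.9 and 112 CPM in fibroblasts and 84.8, 113 and 117 CPM in iOB. Fibroblast and iOB values overlap fully and the authors' unsorted value was -0.00 ± 0.18; sorted, it was -2.45 ± 0.38 (adjusted p = 1.58e-09), a difference of -2.45 ± 0.42 (adjusted p = 1.12e-06). Acta2, the smooth muscle actin used to identify myofibroblasts, was -0.55 ± 0.20 unsorted and -2.36 ± 0.30 sorted in the authors' tables (difference -1.81 ± 0.36, adjusted p = 4.89e-05). Tagln, Lmod1, Actg2 and Tpm2, which encode other proteins of the same filaments, were not called in the unsorted culture and were between -2.27 ± 0.41 and -1.56 ± 0.28 in the authors' sorted table. Myh11 and Myl9, the myosin heavy and light chain genes, were called higher unsorted and lower sorted. Mylk, which encodes the kinase that activates this myosin, was one of the 2 exceptions (1.10 ± 0.15 and 1.91 ± 0.13 in the authors' tables, difference 0.81 ± 0.20, adjusted p = 0.00128).

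**Figure D3:**
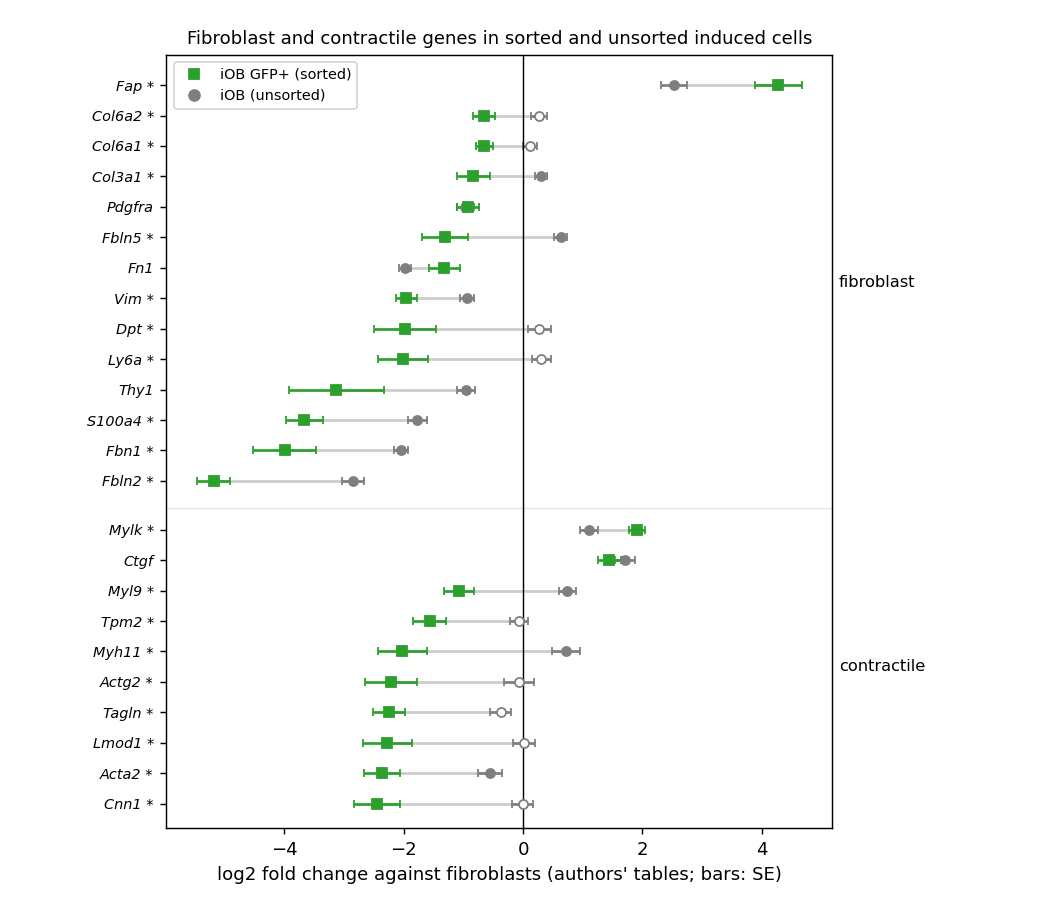
Log2 fold change against fibroblasts in the authors' tables for fibroblast and contractile genes, drawn with green squares for sorted iOB GFP+, grey circles for unsorted iOB and SE bars; open symbols mark an adjusted p of 0.05 or more and an asterisk a called difference. Sorted values lie left of unsorted ones for most genes, with Fap and Mylk on the other side and Pdgfra at the same place.

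Matrix proteases and crosslinking enzymes also differed. Of 20 proteases and their inhibitors, 3 were higher and 5 lower in sorted than in unsorted cells, and of 14 crosslinking and collagen-processing genes, 4 were higher and 1 lower (2 higher without fibroblast replicate 1 or iOB replicate 2, and 2 lower without fibroblast replicate 3 or iOB replicate 1). Mmp13, a collagenase of bone, was lower than in fibroblasts in the authors' unsorted table (-0.54 ± 0.18) and higher in the sorted one (1.65 ± 0.38), a difference of 2.19 ± 0.42 (adjusted p = 1.67e-05). Adamts2, which trims the amino end of procollagen, and Bmp1, which trims the carboxyl end, went from 0.80 ± 0.14 and -0.00 ± 0.14 to 2.53 ± 0.24 and 1.61 ± 0.22 in the authors' tables (adjusted p of the differences = 5.73e-08 and 1.43e-07). Serpinh1, the collagen chaperone Hsp47, was called lower unsorted (-0.57 ± 0.11) and higher sorted (0.47 ± 0.20). Lox, the main crosslinking oxidase, fell in both authors' tables (-1.80 ± 0.18 and -2.41 ± 0.15) with no called difference.

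Amino acid response genes were mostly lower than fibroblasts in the unsorted culture and less so after sorting. These genes answer Atf4 when a cell needs more amino acids, as an osteoblast secreting collagen does: they encode amino acid transporters, enzymes of serine, glycine and asparagine synthesis, and the synthetases that charge transfer RNA. Of 28, 20 were lower and 1 higher than fibroblasts in the unsorted culture, but 5 were lower and 9 higher in sorted cells. The difference was higher in sorted cells for 18 and lower for 0; with a library left out the count of 18 ranged from 12 to 19. The median of the list was -0.72 in the unsorted and -0.01 in the sorted table.

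The promoters of 3 of these genes are shown because they hold the sequence that Atf4 with a partner is known to bind. The letters searched were TGATGNAA on both strands, and the match is in capitals (RefSeq, GRCm38.p6, 5′ to 3′ on the strand of the gene).
Asns, chr6:7693210-7693268, minus strand: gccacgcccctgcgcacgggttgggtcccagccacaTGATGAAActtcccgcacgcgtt
Chac1, chr2:119351013-119351092, plus strand: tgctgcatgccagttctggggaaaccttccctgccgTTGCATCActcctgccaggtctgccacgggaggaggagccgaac
Vldlr, chr19:27216784-27216863, plus strand: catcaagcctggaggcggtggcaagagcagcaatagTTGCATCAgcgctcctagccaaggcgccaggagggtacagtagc
The match lies 23 bases before the start site in Asns, 193 in Chac1 and 200 in Vldlr. Of 22 list members with a promoter in the table, 9 held such a match (40.9%), against 1219 of 27025 genes overall (4.51%). Those 9 were Aars, Asns, Chac1, Fgf21, Gars, Iars, Slc7a11, Trib3 and Vldlr. Fgf21 and Slc7a11 had no called difference between sorted and unsorted cells (adjusted p = 0.938 and 0.860, Wald test). Since the list is of genes known to answer Atf4, this share describes the list. A match shows no binding.

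Asns, which encodes asparagine synthetase, measured 143, 157 and 176 CPM in fibroblasts and 81.7, 69.5 and 68.0 CPM in iOB, so that every unsorted library lay well below every fibroblast library. The authors' unsorted value was -1.10 ± 0.15 (adjusted p = 1.48e-12) and the sorted value -0.06 ± 0.19 (adjusted p = 0.826), a difference of 1.04 ± 0.24 (adjusted p = 6.70e-04). Phgdh and Shmt2, enzymes of serine and glycine synthesis, had the same pattern: -1.40 ± 0.17 and -1.07 ± 0.17 unsorted, and -0.24 ± 0.18 and 0.02 ± 0.14 sorted in the authors' tables, with the sorted values not called. Chac1, a glutathione-degrading enzyme, and Mthfd2, of mitochondrial folate metabolism, crossed from lower to higher than fibroblasts. Chac1 went from -0.80 ± 0.28 to 1.07 ± 0.22 (difference 1.86 ± 0.36, adjusted p = 1.69e-05) and Mthfd2 from -0.69 ± 0.15 to 0.52 ± 0.14 (difference 1.21 ± 0.21, adjusted p = 1.34e-06) in the authors' tables. Slc7a5, the large neutral amino acid transporter, crossed too (-0.71 ± 0.17 and 0.41 ± 0.16, adjusted p of the difference = 1.51e-04). Ddit3, which encodes the stress factor Chop, did not share in this: it was -1.35 ± 0.26 and -1.36 ± 0.17 in the authors' tables (adjusted p of the difference = 0.990).

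**Figure D4:**
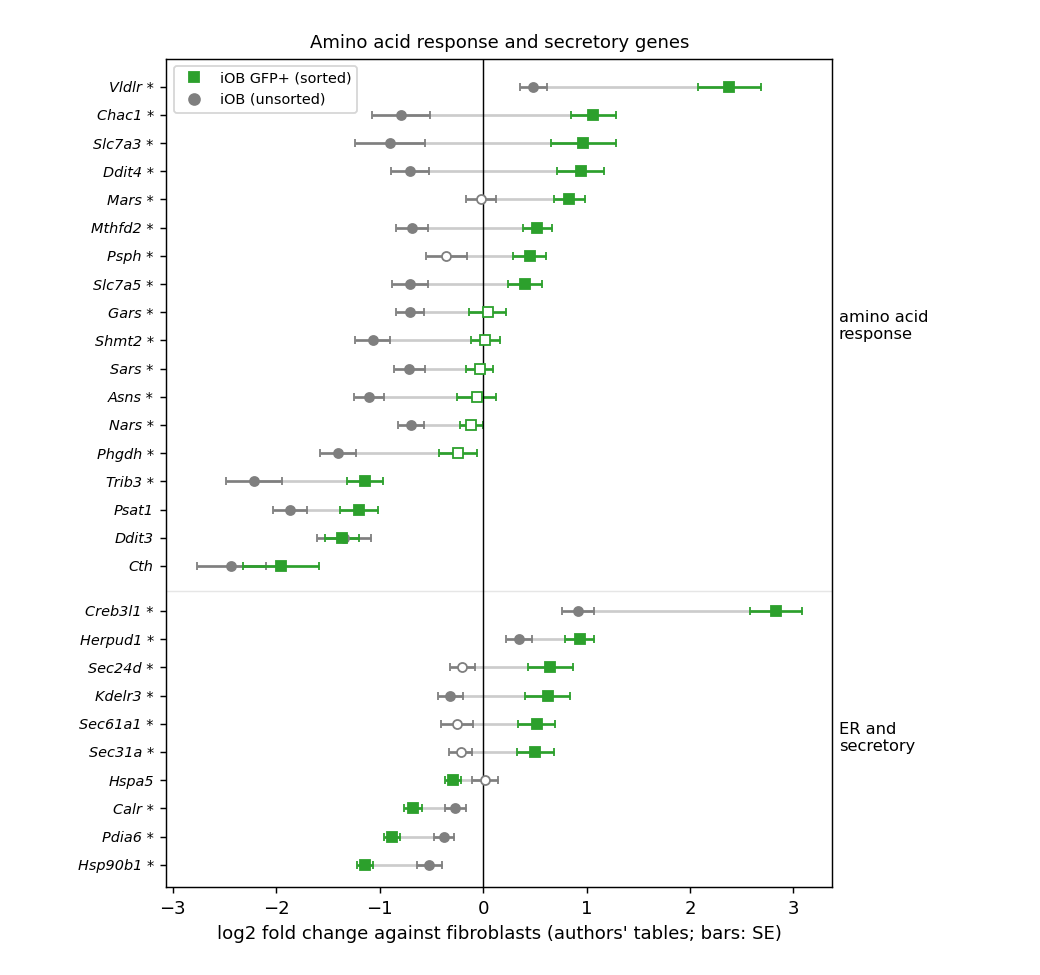
Log2 fold change against fibroblasts in the authors' tables for amino acid response genes (top) and endoplasmic reticulum and secretory genes (bottom), with green squares for sorted iOB GFP+, grey circles for unsorted iOB and SE bars; open symbols mark an adjusted p of 0.05 or more and an asterisk a called difference. Most amino acid response genes lie left of 0 unsorted and near or right of 0 sorted, while Ddit3, Psat1 and Cth lie left of 0 in both.

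Secretory pathway genes moved in both directions. Of 22, 11 were higher and 7 lower in sorted cells, against 4 and 8 in the unsorted culture. The difference was higher for 6 and lower for 4, and lower for 2 without fibroblast replicate 1 or 2 or without any 1 iOB library. Creb3l1, a factor of the endoplasmic reticulum that drives collagen secretion in osteoblasts, measured 153, 119 and 111 CPM in fibroblasts and 250.1, 243 and 235 CPM in iOB. The authors' values were 0.92 ± 0.16 unsorted and 2.83 ± 0.25 sorted (difference 1.91 ± 0.30, adjusted p = 3.77e-08). Sec24d and Sec31a, coat proteins of the vesicles that carry procollagen, were called only after sorting (authors' sorted values 0.65 ± 0.21 and 0.50 ± 0.18; adjusted p of the differences = 0.0106 and 0.0104). Among folding chaperones, Hsp90b1 was -0.52 ± 0.12 unsorted and -1.14 ± 0.07 sorted in the authors' tables (difference -0.62 ± 0.14, adjusted p = 4.88e-04), and Pdia6 differed by -0.51 ± 0.13 (adjusted p = 0.00223).

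Wnt signalling genes also went both ways. Of 36 Wnt genes tested in the authors' sorted table, 15 were higher and 8 lower, and of 36 tested in the unsorted table, 23 were higher and 1 lower. The difference was higher for 5 and lower for 10 of 35, falling to 2 and 7 without iOB replicate 2, and the higher count to 3 without fibroblast replicate 2. Ligands differed among themselves: Wnt7b rose in both authors' tables (5.61 ± 0.54 and 6.52 ± 0.64, adjusted p of the difference = 0.645), Wnt5b was called only after sorting (0.18 ± 0.21 and 1.53 ± 0.19, adjusted p of the difference = 1.11e-04), and Wnt2 fell only after sorting (-0.33 ± 0.31 and -3.28 ± 0.62, adjusted p = 7.90e-04). Rspo3, a secreted amplifier of Wnt signals, fell only after sorting as well (0.37 ± 0.19 and -2.01 ± 0.62, adjusted p = 0.00566). Of the secreted inhibitors, Sfrp4 was higher in sorted cells by 3.01 ± 0.77 (adjusted p = 0.00263), whereas Dkk2 and Dkk3 were lower (differences -2.30 ± 0.70 and -1.36 ± 0.17, adjusted p = 0.0156 and 2.89e-12). The target genes Axin2 and Notum rose in both authors' tables, to 2.77 ± 0.27 and 6.63 ± 0.47 sorted, with no called difference from the unsorted culture.

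Of 41 genes of the bone morphogenetic protein (BMP) and TGF-beta families, 15 were higher and 11 lower in sorted cells. The difference was higher for 8 and lower for 9, which became 4 and 7 without iOB replicate 2. Among ligands, Bmp3 went from 3.49 ± 0.32 to 7.01 ± 0.48 and Bmp8a from 5.72 ± 0.38 to 7.81 ± 0.46 in the authors' tables (adjusted p of the differences = 1.59e-07 and 0.00941). Tgfb1 was higher by 1.04 ± 0.19 and Tgfb3 lower (difference -1.23 ± 0.17; adjusted p = 8.57e-06 and 2.06e-10). Inhba, which encodes the activin A subunit, fell only after sorting (-0.08 ± 0.15 and -1.64 ± 0.18 in the authors' tables, adjusted p of the difference = 1.07e-08). The secreted BMP antagonist gene Grem1 was lower (difference -2.25 ± 0.38, adjusted p = 7.15e-07), and so was the receptor gene Bmpr1b (-2.21 ± 0.56, adjusted p = 0.00251).

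Cell cycle, glycolysis and ribosomal protein genes were lower than in fibroblasts in both tables. Of 32 cell cycle genes, 29 were lower and 1 higher in sorted cells and 26 lower and 1 higher unsorted. Of the 32, 3 had a called difference (9.64% over all genes), 1 higher and 2 lower. Of these 3, Rrm2 alone kept its call under every alternative. The mitotic genes Mki67 and Top2a stood at -2.64 ± 0.25 and -2.62 ± 0.23 sorted and -2.15 ± 0.19 and -2.14 ± 0.22 unsorted in the authors' tables, with no called difference, while Rrm2, a subunit of the reductase that makes DNA precursors, was lower in sorted cells (difference -1.84 ± 0.34, adjusted p = 6.03e-06). Glycolysis and hypoxia genes fell in both, 22 of 25 sorted and 20 of 25 unsorted; Slc16a3, the lactate exporter, was -4.94 ± 0.36 sorted and -5.06 ± 0.42 unsorted in the authors' tables. Of the 25, 1 gene, Adm, had a called difference (-2.01 ± 0.50, adjusted p = 0.00155). Ribosomal protein genes were lower in both, 27 of 28 and 28 of 28, but less so in sorted cells for 9 (5 to 10 with a library left out; 5 without iOB replicate 1).

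Interferon-stimulated genes were high in both. Of 28 tested in the sorted table, 23 were higher and 2 lower than in fibroblasts, and 25 of 27 were higher and 0 lower in the unsorted table. The summed level of the list was 387 to 459 CPM in fibroblasts and 1077 to 1586 CPM in iOB. Isg15, a ubiquitin-like protein made in response to interferon, was 3.36 ± 0.28 sorted and 3.15 ± 0.51 unsorted in the authors' tables (adjusted p of the difference = 0.928). The difference was called for 2 of 26 genes, both lower in sorted cells: Gbp2 (-1.48 ± 0.41, adjusted p = 0.00702) and Ifit2, which was lost in 4 of its 11 alternatives. Antigen presentation genes were higher for 13 of 17 in the sorted table and 13 of 16 in the unsorted one, and 0 of 16 had a called difference under any alternative; H2-D1, a class I heavy chain, was 2.65 ± 0.15 and 2.61 ± 0.21 in the authors' tables.

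The promoter of Isg15 is shown since it carries the interferon response motif in overlapping copies, all on the opposite strand to the gene (searched as TTTC, any 2 bases and TTTC, on both strands, matches in capitals; RefSeq, GRCm38.p6).
Isg15, chr4:156200839-156200932, minus strand: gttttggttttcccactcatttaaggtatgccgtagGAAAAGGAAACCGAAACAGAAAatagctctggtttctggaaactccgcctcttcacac
It holds 3 matches, the first starting 78 bases before the start site. The motif was found in 13 of 22 interferon genes with a promoter in the table (59.1%) and in 1079 of 27025 genes overall (3.99%). Since the list is of genes known to answer interferon, this share describes the list. A match shows no binding.

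Other growth and metabolic pathways were measured as well. Of 17 FGF pathway genes, 10 were higher and 2 lower in sorted cells, and the difference was called for 3. Fgfr1, a receptor of the osteoblast lineage, was 1.12 ± 0.12 unsorted and 1.82 ± 0.16 sorted in the authors' tables (difference 0.70 ± 0.20, adjusted p = 0.00921), and the ligand gene Fgf10 fell only after sorting (-0.06 ± 0.21 and -2.32 ± 0.62, adjusted p of the difference = 0.0109). Of 13 Notch pathway genes 4 were higher and 0 lower, and the receptor gene Notch2 was the one with a called difference (0.18 ± 0.09 and 0.86 ± 0.16 in the authors' tables, adjusted p = 0.00569). Over all genes, 23.7% were higher and 21.7% lower in sorted cells, and 9.64% had a called difference. Cholesterol synthesis genes were higher for 11 of 18 in sorted and 5 of 18 in unsorted cells, with 2 called differences (1 without iOB replicate 2). Dhcr7, which catalyses the last step to cholesterol and whose substrate is also the precursor of vitamin D, was 0.77 ± 0.18 unsorted and 2.14 ± 0.19 sorted in the authors' tables (difference 1.37 ± 0.26, adjusted p = 1.48e-05). Of 19 cell cycle inhibitor and p53 genes, 4 were higher and 8 lower in sorted cells and 4 and 2 in the unsorted culture; the difference was lower for 5 (2 without fibroblast replicate 2, 3 without fibroblast replicate 3) and higher for 1, Bbc3, a p53 target (0.87 ± 0.30, adjusted p = 0.0380; not called with any 1 library left out other than fibroblast replicate 3). Ccng1, a p53 target, was -0.26 ± 0.18 unsorted and -1.26 ± 0.09 sorted in the authors' tables (difference -0.99 ± 0.20, adjusted p = 7.47e-05), while Cdkn1a, which encodes p21 and is also a p53 target, was higher in both (0.54 ± 0.12 and 0.81 ± 0.07, adjusted p of the difference = 0.253). Ihh, a hedgehog ligand of growing bone, was 2.45 ± 0.69 unsorted and 6.48 ± 0.71 sorted in the authors' tables (difference 4.04 ± 0.99, adjusted p = 0.00151).

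Immediate-early genes, which respond within minutes to handling as well as to signals, were higher in sorted cells for 20 of 24 tested and in the unsorted culture for 8 of 21. The difference was called for 4 of 21, all higher in sorted cells, and for 1 to 4 with a library left out (1 without iOB replicate 1, 2 without fibroblast replicate 1 or 2 or iOB replicate 3). With the unsorted values refitted on the fibroblast and iOB libraries alone, it was called for 7. Myc, a growth-promoting factor, was -0.15 ± 0.14 unsorted and 1.43 ± 0.15 sorted in the authors' tables (difference 1.58 ± 0.21, adjusted p = 2.66e-11). Fos, of the same class, rose in both authors' tables with no called difference, at 1.66 ± 0.64 and 2.47 ± 0.62 (adjusted p of the difference = 0.740). The part of the sorting step in these values was not tested.

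Markers of other cell types were measured in the same way. All 26 macrophage genes listed were higher in the authors' unsorted table. Their summed level was 52.2 to 109 CPM in fibroblasts and 2992 to 4841 CPM in iOB. Of the 26, 25 have no p in the sorted table, the exception being Fcer1g (4.84 ± 0.62 sorted, 5.15 ± 0.47 unsorted, adjusted p of the difference = 0.925). All 26 have a lower log2 fold change in the sorted table, where their median was 3.49 against 5.12 in the unsorted table. Fold changes with a large SE are moderated further towards 0. This count and these medians therefore do not measure a fall on sorting. Csf1r, the receptor that macrophages need to live, measured 6.27, 5.62 and 4.64 CPM in fibroblasts and 109, 151 and 163 CPM in iOB and was 4.52 ± 0.27 unsorted; its authors' sorted value of 2.94 ± 0.99 carries no p. The 5 defining macrophage markers (Ptprc, Csf1r, Emr1, Cd68 and C1qa) all had sorted values above 0 in the authors' table. With no p for most of these genes, only the rise in the unsorted culture was tested, and the part of macrophage transcripts in the other values was not tested. The osteoclast list, which shares its lineage, had 4 of 9 genes higher sorted and 6 of 10 unsorted, with 0 of 9 differences called (1 without fibroblast replicate 1 or iOB replicate 2).

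Adipocyte genes gave a similar picture, with 6 of 17 without a p in the sorted table. Adipoq, which encodes adiponectin and had 0 counts in fibroblasts, was 6.02 ± 0.53 in the authors' unsorted table and 2.83 ± 1.11 with no p in the sorted one. Scd1, a desaturase, was the one gene of that list with a called difference (1.18 ± 0.29, adjusted p = 0.00125). Of 19 cartilage genes 8 were higher and 6 lower sorted; Col2a1, the defining cartilage collagen, was lower than in fibroblasts in both authors' tables (-3.42 ± 0.35 and -2.26 ± 0.28), and Prg4, which encodes lubricin, of the joint surface, was among the most lowered genes at or above the median base mean (-5.45 ± 0.32 sorted, -2.99 ± 0.42 unsorted, difference -2.46 ± 0.53, adjusted p = 1.87e-04). Endothelial, lymphoid and mast cell genes had 0 called differences by the Wald test, of 9, 5 and 5 tested. Over all genes tested, 5.58% were higher and 4.06% lower in sorted than in unsorted cells. In the other cell type lists, 1 of 16 keratinocyte genes was lower in sorted cells (Pkp1, -1.92 ± 0.64), 1 of 13 neural and glial genes higher (Tubb3, 1.78 ± 0.60), 1 of 11 skeletal muscle genes lower (Acta1, -1.72 ± 0.54) and 2 of 8 tendon genes lower. Leaving out a library ended these calls for Pkp1 (fibroblast replicate 1 or 2, iOB replicate 1 or 3), Tubb3 (fibroblast replicate 2 or 3, iOB replicate 2 or 3) and Acta1 (fibroblast replicate 2), and left 1 tendon gene without fibroblast replicate 1 or 2.

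The genes furthest from fibroblasts in sorted cells, ranked among those at or above the median base mean, were led by bone genes and by membrane transporters. After Bglap2 and Bglap came Col13a1, a transmembrane collagen, at 0.0936, 0 and 0.166 CPM in fibroblasts and 14.2, 12.1 and 12.9 CPM in iOB. In the authors' tables it was 5.50 ± 0.49 unsorted and 10.41 ± 0.56 sorted (difference 4.92 ± 0.75, adjusted p = 1.76e-08). Slc13a5, which imports citrate, a component of bone mineral, was 7.70 ± 0.33 and 10.23 ± 0.41 in the authors' tables (difference 2.53 ± 0.53, adjusted p = 9.92e-05). Slc36a2, a proline and glycine transporter, differed by 3.85 ± 0.73 (adjusted p = 1.41e-05). Ngef, a guanine nucleotide exchange factor, was high in both, at 7.45 ± 0.35 and 8.56 ± 0.31, with no called difference (adjusted p = 0.129).

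At the other end, Il1rl1, the receptor for interleukin-33, was -2.60 ± 0.23 unsorted and -5.33 ± 0.44 sorted in the authors' tables (difference -2.74 ± 0.50, adjusted p = 4.31e-06). Angptl7, a secreted angiopoietin-like protein, had one of the largest falls on sorting (-3.35 ± 0.71, adjusted p = 1.43e-04). Cav1, which encodes caveolin-1 of membrane pits, measured 1006, 794 and 744 CPM in fibroblasts and 269.5, 360.2 and 318 CPM in iOB, and the authors' values were -1.41 ± 0.17 unsorted and -4.17 ± 0.37 sorted (difference -2.77 ± 0.41, adjusted p = 5.80e-09). Hmga2, a chromatin protein of growing mesenchyme, and Tnmd, a tendon membrane protein, were lower (differences -2.58 ± 0.49 and -2.52 ± 0.56, adjusted p = 1.09e-05 and 3.55e-04). Igfbp2, a binding protein for insulin-like growth factors, was called higher than in fibroblasts in both authors' tables, but less so sorted (1.88 ± 0.67) than unsorted (4.34 ± 0.21; difference -2.46 ± 0.70, adjusted p = 0.00879).

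Further genes with the largest gain on sorting were Col22a1, a collagen of tissue junctions, and Ptprz1, a receptor phosphatase, with differences of 4.65 ± 0.78 and 4.35 ± 0.81 (adjusted p = 5.54e-07 and 8.57e-06). Itga10, an integrin that binds collagen, and Kazald1, a secreted protein of the insulin-like growth factor binding family, followed (3.27 ± 0.37 and 3.34 ± 0.50, adjusted p = 5.30e-15 and 8.84e-09). The 10 genes with the largest change among the 702 called only in sorted cells were at low levels in the culture, all but Ddx4 at or under the level of Pla2g5. Pla2g5, a secreted phospholipase, measured 0.561, 0.702 and 1.08 CPM in fibroblasts and 1.36, 1.41 and 1.49 CPM in iOB and was 0.74 ± 0.52 unsorted and 5.10 ± 0.49 sorted in the authors' tables (difference 4.36 ± 0.71, adjusted p = 2.12e-07). Chst13, a sulfotransferase of chondroitin, was 1.53 ± 0.64 and 5.33 ± 0.63 (adjusted p of the difference = 8.94e-04), and Mag, named for the myelin-associated glycoprotein, 1.10 ± 0.78 and 5.24 ± 0.77 (adjusted p = 0.00372). Ddx4, an RNA helicase of germ cells, was the one of the 10 that fell (-0.87 ± 0.37 and -4.71 ± 0.60, adjusted p = 5.34e-06). The differences of Nxnl2, Batf3, Bhlha15 and Lipi were lost when the unsorted values were given a prior as wide as that of the sorted table. Nxnl2 and Batf3 had 0 counts in all 3 fibroblast libraries.

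**Figure D5:**
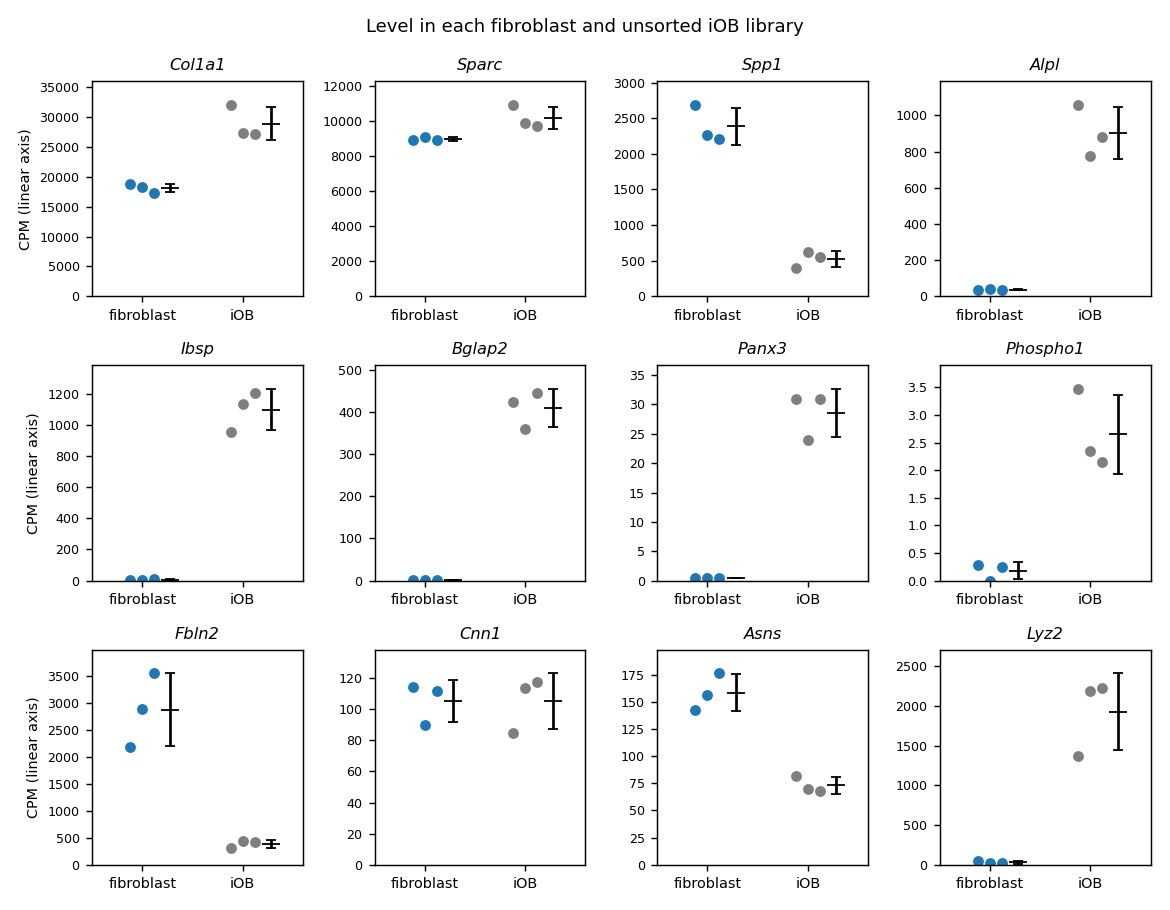
Levels in CPM, on linear axes from 0, of 12 genes in each fibroblast (blue) and unsorted iOB (grey) library; the bar beside each group is the mean with its SD (n = 3). Sparc and Cnn1 barely move between the groups, Spp1, Fbln2 and Asns fall, and Alpl, Ibsp, Bglap2 and Lyz2 rise from near 0.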

How the data were processed

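RNA-seq of fibroblasts, unsorted iOB and sorted iOB GFP+ (3 libraries each) was used. Tools listed without a role in the submitters' processing notes are Bowtie2, STAR (2.4.2a), R (3.2.2) and DESeq2; the build given is mm9. The deposited counts are whole reads per gene symbol for fibroblast, iOB and calvarial osteoblast libraries, and no counts of iOB GFP+ libraries were used here. The authors' deposited tables of each comparison hold log2 fold changes with SE, a score (the fold change over its SE), p-values with adjusted p-values, and a base mean, a signal that averages normalized counts over 9 libraries per the values. Their log2 fold changes are moderated towards 0, which understates weakly expressed genes.

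Log2 fold changes and SEs of the tables were compared gene by gene: the difference, sorted minus unsorted, was divided by the root of the summed squared SEs and its two-sided normal p adjusted by Benjamini-Hochberg over 16894 genes (scipy 1.17.1, pandas 2.3.3, numpy 2.4.6, Python 3.11.15; figures with matplotlib 3.10.9). Both tables share the fibroblast libraries, which makes this error too large rather than too small where both SEs hold. The unlike priors of the sorted and unsorted values are not allowed for in it. Unsorted counts were tested with edgeR 4.0.16 (quasi-likelihood, TMM, filterByExpr, all 9 count libraries, R 4.3.3); refits used DESeq2 1.42.0. Calculations were tested on simulated data. CPM were scaled to the library's total count after adjustment by its TMM factor. Totals were 7634593 to 13367273 in fibroblasts and 5646299 to 8187715 in iOB.

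Genes named were the 4 factors, the 10 largest changes in each direction (sorted table, and difference) among genes at or above the median base mean, the 10 largest changes called only in sorted cells, up to 6 members per list by adjusted p, and cell type markers. Other list members named were chosen after their values were seen. The members and lists were chosen with earlier results of these data known. Promoter sequences are RefSeq's for GRCm38.p6, matched by symbol. Methylation files were not used. Replicate numbers were not used to pair the libraries, except in the replicate block alternative.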

Additional observations from a re-analysis of the deposited data

Results flagged for a closer look

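The log2 fold change against fibroblasts differed between iOB GFP+ and unsorted iOB for 1628 genes, by the test of the difference itself (942 higher and 686 lower in sorted cells). The unsorted cells did not pass a sorter, and the parts of the sorting step and of any difference between cultures were not tested.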

How the results depend on the processing

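Sorted cells differed from fibroblasts in 7424 genes by the authors' adjusted p, in 7356 with Benjamini-Hochberg adjustment over all genes, in 7100 with a base mean of at least 10 and in 5958 at an adjusted p below 0.01. For the unsorted culture, edgeR called 5820 genes, and the alternatives without a left-out library called 5577 to 6957; with a library left out it was 4717 to 5125. The deviations of same-numbered fibroblast and iOB libraries from their group means had correlations of -0.081, 0.018 and -0.017. With 3 libraries per group, these values show no pairing by number but cannot exclude it. Sorted libraries could not be checked. With the replicate block 5614 genes were called. The 1628 differences became 1617 to 2028 with centring, a base mean filter or refitted unsorted values, 1538 with an unsorted prior as wide as the sorted one (chosen after seeing the data) and 1148 to 1437 with a library left out. The genes called only in sorted cells, 702 as reported, numbered 529 to 768. Left-out libraries changed the unsorted values only, since the sorted table holds every fibroblast library. Leaving out a fibroblast library therefore also made the fibroblast baselines of the sorted and unsorted values differ. Among 272 named genes, 106 differences were called; 74 kept their call in all 11 alternatives, 32 lost it in at least 1, 18 others gained it, and 0 changed sign while called. The unknown depth of the sorted libraries and missing p-values limit what can be said of macrophage, adipocyte and inflammatory genes.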
